A study of Zea mays with 10 samples.

Results

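The precursor loci of the maize miRNA families MIR160 and MIR167 were described in RNA from prophase I anthers and isolated prophase I male germ cells. All rows whose ID begins with zma-MIR160 or zma-MIR167 plus a letter were taken from both prophase I tables. This gave 5 loci of 25844 features, or of 49 miRNA loci, listed in either table: MIR160d, MIR167a, MIR167c, MIR167d and MIR167g. MIR167d and MIR167g stood in both tables, MIR160d and MIR167a in the anther table, and MIR167c in the germ cell table. The libraries formed 4 groups of 2: anthers and male germ cells of B73, the inbred line behind the maize reference genome, and of ms28, a male-sterile line. The mutated gene of ms28 is known to encode an ARGONAUTE protein, the class of protein that binds small RNAs. Plants of both lines grew in a field or in a greenhouse, per the labels, and the place is not given per library. Whether the mutation was crossed into B73 is not known here, so a difference between the lines may include other differences of background. The 2 libraries of a group are not said to come from separate plants, and the spread behind each p-value may therefore be technical. The table of premeiotic B73 anthers listed 0 miRNA loci and gave no value for these families.

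miR160 and miR167 are old, conserved plant miRNAs that pair with messenger RNAs of auxin response factors (ARFs), the DNA-binding proteins through which auxin changes transcription. miR160 is known to act on the ARF10, ARF16 and ARF17 group of Arabidopsis, which mostly represses, and miR167 on the ARF6 and ARF8 group of Arabidopsis, which mostly activates. In Arabidopsis, loss of the miR167 control of ARF6 and ARF8 harms anther and ovule development. Each family is made from several loci, whose long primary transcripts are cut by DICER-LIKE1 to hairpins and then to the mature miRNA. The values here are RNA levels at the precursor loci. They are not levels of mature miRNA, and copies of a family can give one mature sequence from loci that differ in expression.

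Expression is given in TPM, a length-scaled measure of how much of a library's RNA a transcript makes up. A precursor at 2 TPM therefore makes up a small share, and the number of reads behind it is unknown because TPM keeps no depth. In bulk RNA, fewer cells of a type and less RNA per cell cannot be told apart. The libraries were not equal in their overall distribution. Median TPM over all listed features was 8.27 and 6.65 in B73 anthers, 4.45 and 4.66 in ms28 anthers and 6.0 to 6.92 in the 4 germ cell libraries. The summed TPM of all listed miRNA loci was 7273 in B73 anther replicate 1 and 2521 to 3417 in the other 3 anther libraries. It was 599.8 to 1058 in the germ cell libraries. The sums cover 48 loci in anthers and 26 in germ cells. MIR2275c alone read 3716 TPM in B73 anther replicate 1, 761.5 to 1318 in the other 3 anther libraries and 221 to 456 in germ cells. Of 25795 gene models in the prophase I tables, 0 could be paired with a name, so the markers of germ cells and of the anther wall could not be looked up and the tissue labels were not checked.

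MIR167g was the leading locus of the families in anthers and was far lower in germ cells. Its TPM was 37.0 and 22.1 in B73 anthers, 19.5 and 17.7 in ms28 anthers, 1.85 and 3.42 in B73 germ cells and 5.67 and 2.67 in ms28 germ cells. All 4 anther libraries lay above all 4 germ cell libraries, and the germ cell groups overlapped. Within a line, both germ cell libraries lay below both anther libraries for 49.4% of all tested features in B73 and for 34.3% in ms28. The share with all 4 anther libraries above all 4 germ cell libraries was not counted. MIR167g ranked 12th to 16th among the 48 miRNA loci of each anther library and 12th to 18th among the 26 of each germ cell library. The group means were 29.6 ± 10.5 and 18.6 ± 1.27 TPM in B73 and ms28 anthers, and 2.63 ± 1.11 and 4.17 ± 2.12 TPM in B73 and ms28 germ cells (SD, n = 2).

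MIR167d was low throughout, and was lowest in ms28 anthers. It read 3.12 and 4.27 TPM in B73 anthers, 0.82 and 0.61 TPM in ms28 anthers, 2.91 and 2.67 TPM in B73 germ cells and 1.84 and 2.24 TPM in ms28 germ cells. Both ms28 anther libraries lay below every other library, and no pair of groups overlapped. Of all tested features, 68.7% had both ms28 anther libraries below both B73 anther libraries. Both ms28 germ cell libraries lay above both ms28 anther libraries for 47.6%. The share of features with no overlap between any groups was not counted. The group means were 3.70 ± 0.81 and 0.715 ± 0.148 TPM in B73 and ms28 anthers, and 2.79 ± 0.17 and 2.04 ± 0.28 TPM in B73 and ms28 germ cells (SD, n = 2). From the highest mean to the lowest the groups ran B73 anthers, B73 germ cells, ms28 germ cells and ms28 anthers.

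**Figure D1:**
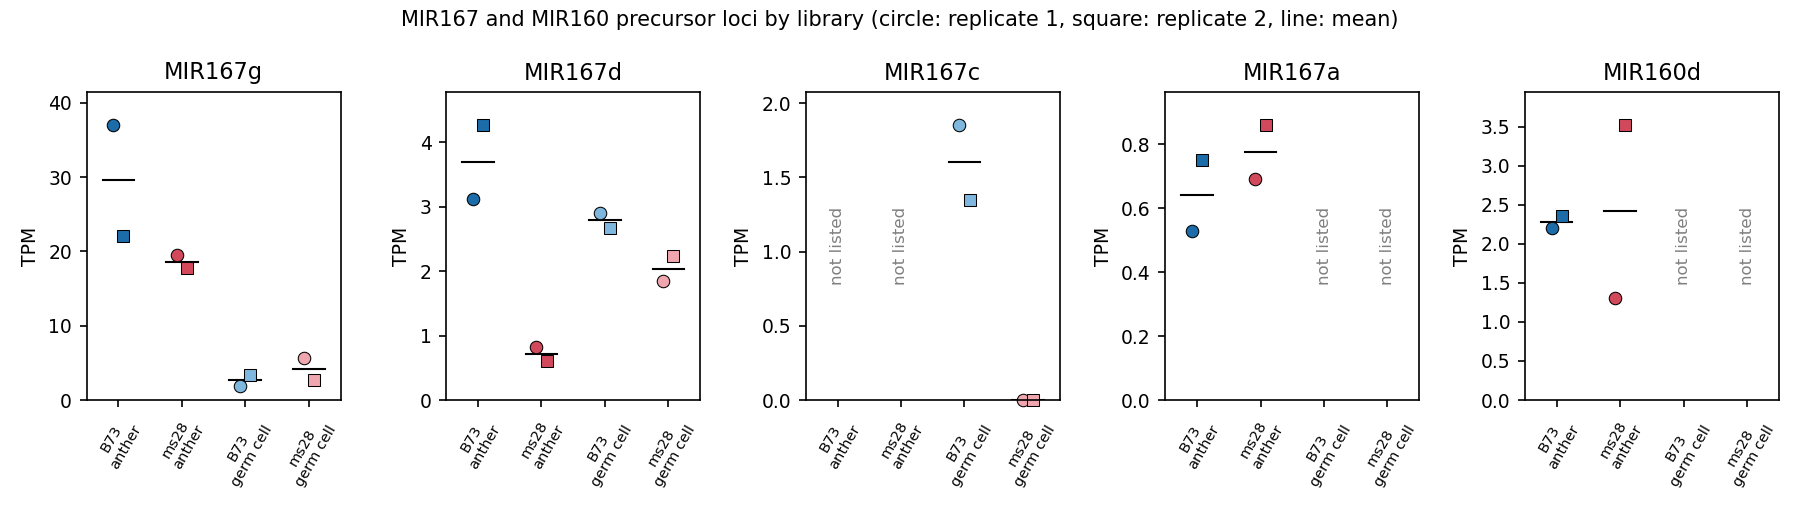
TPM (y axis, linear and of different range in each panel) of the 5 loci in each prophase I library, with a line at the group mean. MIR167g separated anthers, at 17.7 to 37.0 TPM, from germ cells, at 1.85 to 5.67 TPM. MIR167d was lowest in ms28 anthers, and a group whose table does not list the locus is marked as not listed.

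MIR167c, MIR167a and MIR160d were all under 4 TPM. MIR167c read 1.85 and 1.35 TPM in B73 germ cells, and both ms28 germ cell libraries list it at 0. MIR167a read 0.53 and 0.75 TPM in B73 anthers and 0.69 and 0.86 TPM in ms28 anthers, with overlapping groups. MIR160d, the only listed precursor of its family, read 2.2 and 2.36 TPM in B73 anthers and 1.31 and 3.52 TPM in ms28 anthers. Its ms28 libraries lay on either side of both B73 libraries. The RefSeq gene table of Zm-B73-REFERENCE-NAM-5.0 names 5 MIR160 and 10 MIR167 loci, so 1 of 5 and 4 of 10 had a row. In that assembly MIR167a and MIR167g are neighbours, and the genes follow each other as LOC112679201, MIR167a, LOC100381792 and MIR167g. Each of the 5 loci lies within 1 longer noncoding RNA gene there. The files are of another build, B73 RefGen_v4 in the submitters' processing notes. The libraries do not mark strand, so reads of an overlapping transcript, or reads that family copies share, leave the level of a locus uncertain. Within the anther libraries MIR167g stood at 20.6 to 69.8 times the TPM of MIR167a. The part of overlapping transcripts in this difference was not tested.

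The first comparison asked how ms28 anthers differed from B73 anthers. MIR167d fell, by 1.44 on the log2(TPM + 1) scale (SE 0.22, limma, adjusted p = 0.018), which understates the change of a low locus. MIR167g had a log2 difference of -0.60 with a 95% confidence interval from -1.45 to 0.25 (adjusted p = 0.242 by limma), which became -0.24 without B73 anther replicate 1 and -0.96 without B73 anther replicate 2. Its anther groups did not overlap, but both ms28 libraries lay below both B73 libraries for 68.7% of all tested features, and 7.31% were called lower. Of the other 23 miRNA loci in the fit, 1 was called lower and 2 were called higher, with a median difference of -0.26, against a median of -0.48 over all 20892 tested features. One of these other loci had a lower value than MIR167d, and 7 had a lower value than MIR167g.

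The fall of MIR167d depended on how the libraries were scaled. With libraries centred on their median feature it was -0.84 (SE 0.26, adjusted p = 0.171 by limma), and with quantile normalization -0.96 (adjusted p = 0.132). The same centring brought MIR167g to 0.01 (95% confidence interval -0.74 to 0.75). In the anther table alone MIR167d passed the filter of 1 TPM in at least 2 libraries only through its 2 B73 libraries. The fit of that table is therefore given as a description. That fit, where 0.32% of features were called, gave an adjusted p = 0.093 by limma for MIR167d. Of the fits with 1 library removed, those without ms28 anther replicate 1 or 2 (adjusted p = 0.098 and 0.080) and those without ms28 germ cell replicate 1 or 2 (0.0531 and 0.0532) did not call it.

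A ratio of loci within a library stays the same when all TPM of that library are multiplied by 1 factor. MIR167g stood at 11.9 and 5.18 times the TPM of MIR167d in B73 anthers and at 23.8 and 29.0 times in ms28 anthers. Both ms28 ratios lay above both B73 ratios, and rest on MIR167d values of 0.82 and 0.61 TPM. These are the same values by which the MIR167d anther groups did not overlap, so the ratios are no separate evidence of a change. How many other pairs of loci separate in this way was not counted. With 2 libraries a group an exact two-sided permutation test cannot go below p = 0.333, which is the value it gave, so it cannot tell whether the ratio differed. In germ cells the ratio was 0.634 and 1.28 in B73 and 3.08 and 1.19 in ms28, and the groups overlapped. MIR167g accordingly made up 81.5 to 92.8% of the summed MIR167 TPM in the 4 anther libraries and 27.9 to 75.5% in the 4 germ cell libraries, where MIR167c takes the place of MIR167a among the listed loci.

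**Figure D2:**
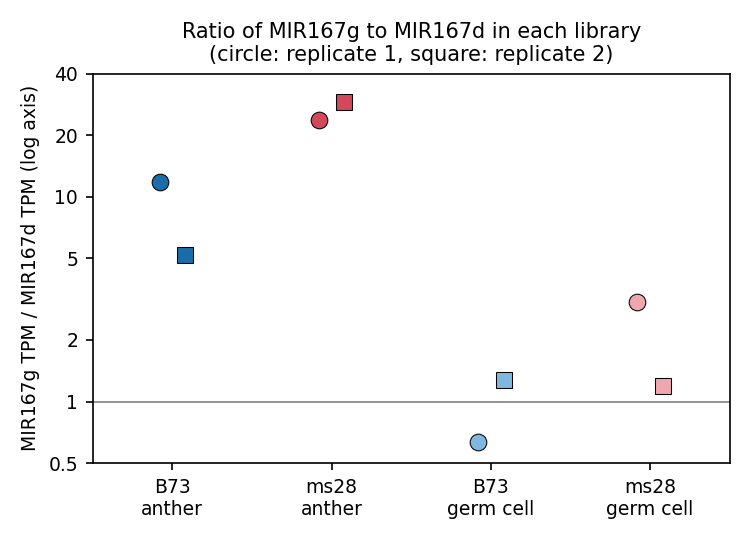
Ratio of MIR167g TPM to MIR167d TPM (y axis, log scale) in each of the 8 prophase I libraries, by group, with a line at 1. The ratio lay between 5.18 and 29.0 in anthers and between 0.634 and 3.08 in germ cells. Both ms28 anther libraries stood above both B73 anther libraries, and how many other pairs of loci separate in this way was not counted.

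MIR160d and MIR167a could be compared in anthers only within their own table. MIR160d had a log2 difference of -0.02 with a 95% confidence interval from -0.96 to 0.91 (adjusted p = 0.967 by limma). The sign of this value turned with centring (0.58) and with quantile normalization (0.49), and neither was called. MIR167a was under 1 TPM in all 4 libraries and did not pass the filter on low values. Without that filter its log2 difference was 0.12 (95% confidence interval -0.32 to 0.55, adjusted p = 0.615 by limma).

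The second comparison asked the same of germ cells. MIR167c, at 1.85 and 1.35 TPM in B73 germ cells, was listed at 0 in both ms28 libraries. No fold is given against a group at 0 without counts. Of the 18840 features tested in that table, 8.42% were called lower, and 0.101% stood at 1 TPM or more in both B73 libraries and at 0 in both ms28 libraries, as MIR167c did. The 0.101% rests on a rule shaped on the values of MIR167c and covers features of all levels. It therefore does not show how unusual a 0 is among low loci. MIR171f, another miRNA locus, also read 0 in both ms28 germ cell libraries, against 0.21 and 1.58 TPM in B73 germ cells. Among the 26 miRNA loci of this table, MIR167c ranked 17th and 24th in the B73 libraries. In the ms28 libraries it shared all places from the 23rd and from the 24th on with other loci at 0. MIR167c passed the filter on low values through its 2 B73 libraries alone, and its ms28 spread is that of 2 values at 0. The number of reads behind values under 2 TPM is unknown. The limma fit of that table gave an adjusted p = 0.0051, and 0.0067 without the filter, which is given as a description for these reasons. MIR167d had a log2 difference of -0.32 (95% confidence interval -0.82 to 0.19, adjusted p = 0.342) and MIR167g one of 0.48 (-0.37 to 1.33, adjusted p = 0.395 by limma). Leaving out replicate 1 or 2 of the ms28 germ cells gave MIR167g values of 0.05 and 0.91, and leaving out replicate 1 or 2 of the B73 germ cells gave 0.16 and 0.80. Neither locus was called in germ cells, where the joint fit called 9.05% of features higher and 5.29% lower.

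Both libraries of ms28 germ cells lay below both of B73 for MIR167d, as for 28% of all tested features. The MIR167g interval, from -0.37 to 1.33, does not exclude a change of 2-fold on this scale.

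The effect of ms28 was then compared between the tissues. For MIR167d the effect in germ cells minus that in anthers was 1.13 on the log2 scale (SE 0.31, adjusted p = 0.048 by limma), a direction in which 13.9% of all features were called. For MIR167g it was 1.08 (SE 0.53, 95% confidence interval -0.13 to 2.28, adjusted p = 0.178). The median over all tested features was itself 0.56 in this comparison, and 16 of the 23 other miRNA loci had a lower value than MIR167d. With centring the values became 0.43 and 0.38 (adjusted p = 0.499 and 0.638 by limma), and with quantile normalization 0.50 and 0.35. The MIR167d call also ended with any 1 of the 8 libraries left out (adjusted p from 0.053 to 0.130).

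**Figure D3:**
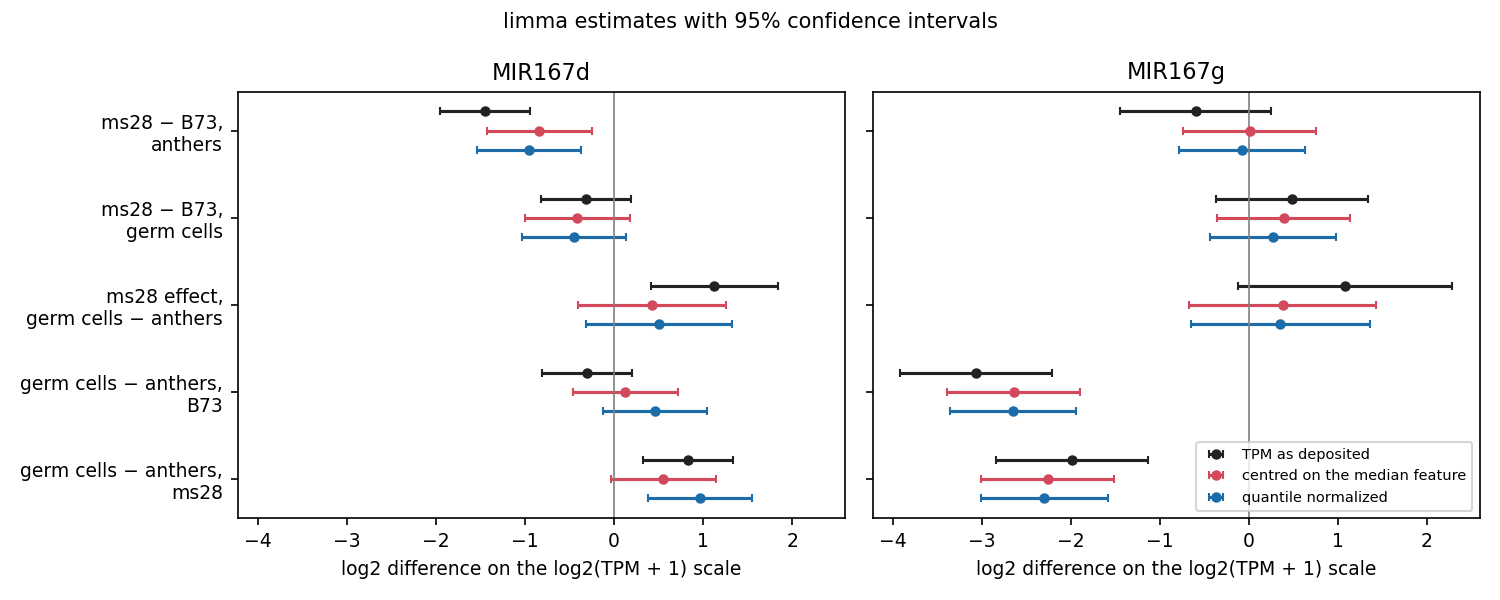
Differences on the log2(TPM + 1) scale (x axis) for MIR167d and MIR167g in 5 comparisons, with 95% confidence intervals from limma, for TPM as deposited, centred libraries and quantile normalized libraries. The MIR167g deficit in germ cells stayed below 0 in all 3 scalings in both lines, while the MIR167d difference in anthers moved from -1.44 to -0.84 and -0.96.

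Germ cells were also compared with whole anthers within each line. The tissues stand in separately filtered tables, so a difference between tables cannot be told apart from one between tissues. MIR167g was lower in B73 germ cells by a log2 difference of -3.06 (SE 0.37, adjusted p = 0.00022) and in ms28 germ cells by one of -1.99 (SE 0.37, adjusted p = 0.0022 by limma). In B73 41.2% of all features were called lower in germ cells, and in ms28 21.5%. Of the 23 other miRNA loci, 18 were called lower in B73 and 14 in ms28, with 2 called higher in each line. Both MIR167g calls held under every alternative run, with log2 differences from -3.46 to -2.64 in B73 and from -2.42 to -1.55 in ms28.

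MIR167d was not called lower in the germ cells of either line. Its log2 difference was -0.30 in B73 (95% confidence interval -0.80 to 0.21, adjusted p = 0.252), and in ms28 it was higher in germ cells by 0.83 (SE 0.22, adjusted p = 0.012 by limma). In ms28 35.2% of all features were called higher in germ cells, and 47.6% had both germ cell libraries above both anther libraries, as MIR167d did. Of the 23 other loci, 20 had a lower value than MIR167d in B73 and 21 in ms28. The median of those loci was -2.09 in B73 and -1.50 in ms28. On this scale MIR167d stood at only 0.86 and 0.69 in ms28 anthers, so it could not have fallen as far as -1.50. In B73 anthers it stood at 2.04 and 2.40, which left little room below -2.09. These counts therefore do not show that MIR167d escaped a fall seen in other loci. The sign of the B73 value turned with centring (0.12) and quantile normalization (0.46), neither called. The ms28 rise lost its call with centring (0.55, adjusted p = 0.096) and without ms28 anther replicate 2 or ms28 germ cell replicate 2 (adjusted p = 0.076 and 0.073 by limma), and kept it with quantile normalization (0.96, adjusted p = 0.012).

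**Figure D4:**
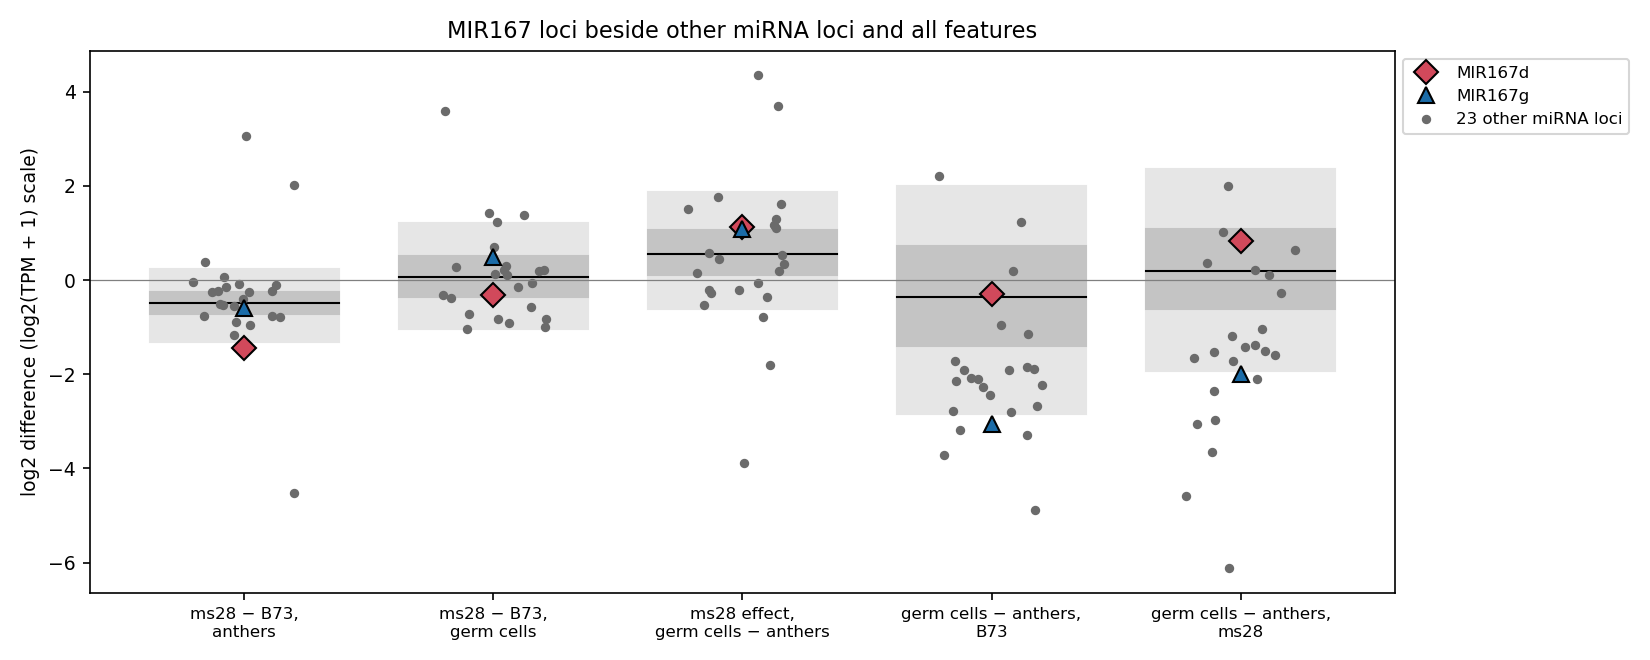
Differences on the log2(TPM + 1) scale (y axis) in 5 comparisons for MIR167d, MIR167g and the 23 other miRNA loci in the joint fit, over bands that span the 5th to 95th and the 25th to 75th percentiles of all tested features, with a line at their median. In both tissue comparisons most loci, MIR167g among them, lay below 0, and MIR167d lay near or above the median of all features.

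In order of level, neighbouring groups of MIR167g passed the limma test only between ms28 anthers and ms28 germ cells, and neighbouring groups of MIR167d only between ms28 germ cells and ms28 anthers. The loci whose values were most like those of MIR167g over the 8 libraries, by Pearson correlation of log2(TPM + 1), were MIR169o (r = 0.954) and MIR2275c (r = 0.944), of 24 loci compared. Among 13280 gene models at a mean of 10 TPM or more in a group, Zm00001d002085 was most like it (r = 0.996), at 14.9 and 11.8 TPM in B73 anthers, 10.5 and 9.15 TPM in ms28 anthers, 1.99 and 3.69 TPM in B73 germ cells and 4.55 and 2.66 TPM in ms28 germ cells. MIR167d had no locus as close, with MIR2118c (r = 0.717) and MIR171f (r = 0.488) nearest. These libraries form 4 groups in 2 tissues and share their depth and scaling across loci, so the values describe likeness only.

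Other parts of the auxin pathway could be followed only through miRNA loci. Of 101 auxin pathway symbols (ARFs, Aux/IAA repressors, TIR1/AFB receptors, PIN carriers and YUCCA enzymes among them), 30 stood in the reference table and 0 could be paired with a feature, so no target of miR160 or miR167 was measured by name. Of 11 genes of miRNA production, 1 stood in that table and 0 were paired. The miRNA families chosen for their link to auxin were MIR390, whose tasiRNAs act on ARFs, MIR393, which acts on TIR1/AFB receptors, and MIR164, which acts on NAC factors. MIR390a read 1.11 and 0.80 TPM in B73 anthers and 0.66 and 0.52 TPM in ms28 anthers and did not pass the filter on low values. MIR164c read 2.19 and 0.94 TPM in B73 anthers and 1.71 and 1.92 TPM in ms28 anthers, with a log2 difference of 0.18 (95% confidence interval -0.59 to 0.94, adjusted p = 0.652 by limma). Neither had a row in the germ cell table, and no MIR393 locus had a row in either table.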

How the data were processed

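Total RNA was made into Smart-seq type libraries and sequenced paired-end on an Illumina machine, per the labels' protocols. Tools named in the submitters' processing notes, with no role for each, are HISAT2 2.2.1, Trimmomatic 0.33, DESeq2, Cufflinks and featureCounts 2.0.1, and the build is B73 RefGen_v4. The values of the deposited prophase I tables were taken as TPM, because each of the 8 columns summed to 99.1 to 99.4% of 1000000 and low values shared no common step. No header or label names the unit. Columns headed WT were read as B73. The deposited premeiotic table has no stated unit, sums to 83.0 and 83.2% of 1000000 and was not tested.

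Features in both tables at 1 TPM or more in at least 2 of 8 libraries were fitted as log2(TPM + 1) with limma 3.58.1 (trend, R 4.3.3), with 1 coefficient per group and no block, and called at a Benjamini-Hochberg adjusted p under 0.05 over all features. Loci in 1 table were fitted within it, over 20946 features in anthers and 18840 in germ cells. The fit was also run on simulated data, whose outcome is not given here, so that run adds no support to the values. All members are named, and likeness was ranked by Pearson correlation. The members, lists and tests were chosen with earlier results of these data known. Tables and figures were made in Python 3.11.15 with scipy 1.17.1, matplotlib 3.10.9, numpy 2.4.6 and pandas 2.3.3. Sequences of these miRNAs are not shown here, since no file used here held them.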

Additional observations from a re-analysis of the deposited data

Results flagged for a closer look

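The ms28 effect on MIR167d differed between germ cells and anthers by 1.13 on the log2(TPM + 1) scale (adjusted p = 0.048 by limma), which is why it is listed here. The values behind it are 3.12 and 4.27 TPM in B73 anthers against 0.82 and 0.61 TPM in ms28 anthers, and 2.91 and 2.67 TPM in B73 germ cells against 1.84 and 2.24 TPM in ms28 germ cells. In this direction 13.9% of all features were called. The median over all listed features was lower in ms28 anthers than in B73 anthers, as given above. With each library centred on its median over the tested features the difference between the effects was 0.43 (adjusted p = 0.499 by limma). With quantile normalization it was 0.50 (adjusted p = 0.440 by limma), and the replicate block also ended the call (adjusted p = 0.070 by limma).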

How the results depend on the processing

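Of 72 values of single loci under alternatives that kept all libraries or only those of the comparison, 65 kept their side of the threshold and 7 lost their call. In anthers MIR167d lost it with centring (-0.84), quantile normalization (-0.96) and the fit of the anther table alone (-1.44). For the difference of the ms28 effects MIR167d lost it with centring (0.43), quantile normalization (0.50) and the replicate block (1.13, adjusted p = 0.070), and in ms28 germ cells against anthers with centring (0.55). With 1 library left out these MIR167d values ran from -1.62 to -1.27, from 0.95 to 1.30 and from 0.73 to 0.92. Called values of MIR167g kept their call in all of these fits. With 1 library left out, the uncalled MIR167g difference of the effects ran from 0.65 to 1.51, and the uncalled MIR160d difference from -0.51 to 0.46. The adjusted p of MIR167c was 0.019 to 0.047 with 1 library left out, which shows no stability, since its ms28 values are 0. Without a B73 germ cell library it falls below the filter, so those 2 fits had no filter, a choice made after seeing the data, and assume that the lone B73 library varies like the others. A pseudocount of 0.1 took the MIR167d difference in anthers to -2.21 and ended no call.

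No label ties the replicate numbers of different groups together. Replicate deviations of the groups correlated between -0.081 and 0.144 over 20892 features, highest between B73 anthers and B73 germ cells. These values do not settle whether libraries were paired. With the replicate block the calls over all features went from 1633 to 1046 in anthers and from 3009 to 1870 for the difference of the effects. Centring, quantile normalization and the anther table alone gave 307, 318 and 67 calls in anthers, and centring and quantile normalization gave 452 and 221 for the difference. With 1 library left out limma called 59 to 4241 features in anthers, 293 to 4092 in germ cells and 0 to 4475 for the difference, where the fit that called 0 had 5231 at an unadjusted p under 0.05. In the anther table alone, 67 calls became 113 with that pseudocount, 14 without a filter and 0 with the block (limma, 5288 at an unadjusted p under 0.05). The causes were not tested. Depth is unknown, and loci under 5 TPM may rest on few reads. The fit of only the libraries of the comparison is the same as the main one for the difference of the effects.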
